A study of Homo sapiens with 4 samples.

Results

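The genes described here are 45 genes of chromosomal DNA replication and of the supply of its nucleotides. They were listed by name, from origin recognition to the sealing of new DNA strands. The rule uses no measured value, but the list was made with earlier results of these data known. All 45 were found in the table of 60554 genes, on 19 chromosomes, and all 45 were among the 12662 genes whose normalised count averaged at least 50 over the libraries, called measured genes below.

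RNA was sequenced from IGROV1-R10 cells, an ovarian cancer line derived from IGROV1 and known for its resistance to cisplatin. Cells were transfected with duplexes of a biotin-carrying miRNA at 60 nM, either biotin-miR-491-5p or biotin-cel-miR-65, a worm miRNA that served as the control. From each lysate, cleared of nuclei and debris, 10% was kept as input, and the remainder was mixed with streptavidin beads for 4 h, which after 5 washes gave the pull-down. The 4 groups were thus an input and a pull-down of each transfection, each with 1 library of the pooled RNA of 3 experiments. All cells were given a biotinylated duplex, and no library of untransfected cells was used here. The design asks which transcripts come down with miR-491-5p. It defines enrichment as the miR-491-5p pull-down over the control pull-down, divided by the same ratio of the inputs, so that a lower level of a transcript in the lysate does not count against its capture.

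In each cell cycle the origin recognition complex (ORC) marks the start sites of replication, and CDC6 and CDT1 then load the ring-shaped MCM2 to MCM7 helicase there. The CDC7 kinase and its partner DBF4, together with MCM10, turn the loaded ring into the active helicase of MCM proteins, CDC45 and GINS. Polymerases with their sliding clamp PCNA copy the strands, RPA covers single-stranded DNA, and ribonucleotide reductase and thymidylate synthase provide precursors. A miRNA, held by an Argonaute protein, finds transcripts mainly through the bases at positions 2 to 8 from its 5′ end, its seed.

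The mature miRNA used as bait is shown because its seed defines what it can pair with. RefSeq places it at chr9:20716120-20716141 on the plus strand of GRCh38.p14, and its 22 bases hold the seed in capitals:
miR-491-5p: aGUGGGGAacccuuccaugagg
Of the 7 seed bases 5 are G, and the DNA letters that pair with the whole seed are TCCCCAC. Matches to this seed in the transcripts of the 45 genes were not analysed here.

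Start sites of the members were searched for E2F-type motifs, because many replication genes are known as targets of the E2F factors that switch on the S phase programme. RefSeq windows of 300 bases, from 250 before to 50 after the annotated start on GRCh38.p14, were at hand for 39 of the 45 genes. MCM4, MCM5, GINS4, POLD3, RPA2 and RPA3 had no window. An E2F-type motif, spelled TTTCCCGC, TTTGGCGC, TTTCGCGC or TTTGCCGC on either strand, was in 18 of the 39 windows (46.2%). The same letters were in 9 of 55 windows of the other replication and nucleotide genes described below (16.4%), in 4.10% of 22198 windows of protein-coding genes and in 3.31% of all 35116 windows. Each listed gene had only the window nearest its annotated 5′ end. The 22198 and 35116 windows hold every start at hand of 15842 and 27305 genes, so these shares are not counted alike. Stretches of 40 bases with the motif in capitals, each 5′ to 3′ on the strand of its gene, show the forms in helicase, clamp and polymerase genes:
MCM3 (chr6:52284893-52284932, minus strand): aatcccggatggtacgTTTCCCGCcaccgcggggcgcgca
MCM6 (chr2:135876570-135876609, minus strand): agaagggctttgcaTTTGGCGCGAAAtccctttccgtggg
MCM6 (chr2:135876508-135876547, minus strand): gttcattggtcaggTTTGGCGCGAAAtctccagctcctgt
PCNA (chr20:5126658-5126697, minus strand): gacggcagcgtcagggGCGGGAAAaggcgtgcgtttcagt
POLA1 (chrX:24693765-24693804, plus strand): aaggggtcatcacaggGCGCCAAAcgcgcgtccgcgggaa
In both MCM6 stretches the letters TTTGGCGCGAAA hold a motif on each strand, the pair overlapping, so that 4 motif matches in the MCM6 window came from 2 places. The CCAAT box was in 20 of the 39 windows (51.3%), in 29 of 55 windows of the other replication and nucleotide genes (52.7%) and in 34.7% of protein-coding windows. The median log2 input ratio was 0.02 for the 18 genes with an E2F-type motif and 0.06 for the 21 without. The median log2 enrichment was 0.26 and -0.02 in the same order, a difference given as a description. MCM4 and MCM5, the highest members by enrichment, are in neither group. Of the helicase genes with a window, MCM2, MCM3, MCM6, MCM7 and GINS1 to GINS3 had the motif and MCM10 and CDC45 did not. A part of the motif apart from the role of the genes was not tested.

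The inputs held 59588552 (miR-491-5p) and 47679684 (control) counted reads, and the pull-downs 61705443 and 62582646. Every member had at least 674 reads in every library, so the standard error of a member's log2 enrichment from counting lay between 0.02 and 0.10. Intervals below are 95% intervals of counting error only, and since a group is 1 library, differences between miR-491-5p and the control carry neither a replicate check nor a p-value. Listed markers of ovarian or Müllerian epithelium were counted in every library (9 of 9), 7 of them at 1 TPM or more. Their summed length-scaled level was 1455 to 1825 TPM. KRT8, KRT18 and EPCAM had the highest levels, each at 263.5 TPM or more in every library. MSLN (0.21 to 0.36 TPM) and MUC16 (0.13 to 0.50 TPM) stayed under 1 TPM. The control input stood apart in hepatocyte transcripts: 10 of 10 markers had reads there, with a summed level of 57.7 TPM, against 6 to 7 markers and 0.455 to 0.613 TPM in the other libraries. Fibroblast markers summed to 4.63 TPM in the control input, 1.88 TPM in the miR-491-5p input and 0.384 to 0.429 TPM in the pull-downs, where DCN and LUM were at 0 in the control. FGA and ORM1 were at 0 in each library but the control input, and ALB was at 0 in the miR-491-5p pull-down. Immune markers summed to under 1 TPM in every library. The endothelial sum of 23.1 to 86.6 TPM came almost wholly from CDH5, with PECAM1 and VWF each under 1 TPM. Ratios that use the control input (enrichment, input ratio and control pull-down over input) hold the hepatocyte transcripts mainly in that library. Fibroblast transcripts were in both inputs. DCN was higher in the miR-491-5p input (0.190 TPM) than in the control input (0.107 TPM) and LUM was level (0.184 and 0.182 TPM). COL1A1, COL1A2, COL3A1 and PDGFRB were lower in the miR-491-5p input. The part of the hepatocyte and fibroblast transcripts in the ratios was not tested, while the ratio of the pull-downs uses no input. Normalised counts are given below as a pair for the inputs and a pair for the pull-downs, miR-491-5p before control in each.

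Replication genes lay slightly above all measured genes in enrichment, and few passed 2-fold. The helicase subunit MCM4 was 2.18-fold enriched, RPA1, the large subunit of the single-strand binding protein, was 3.16-fold depleted, and the other 43 genes were not past 2-fold. On the log2 scale of normalised counts plus 1, the median enrichment of the 45 genes was 0.23, with quartiles of -0.27 and 0.45, and the median of all measured genes was 0.00. MCM4 was the 1 member of 45 at least 2-fold higher with an interval excluding 0 (2.22%), where 4.46% of all measured genes were, and RPA1 was the 1 member lower, where 5.32% were. The share of members past 2-fold was therefore no larger than that of all genes in either direction. Values were above 0 for 28 members and below 0 for 17, where 50.1% and 49.9% of all measured genes were. The interval excluded 0 for 26 and 14 of these members, and the matching share over all measured genes was not counted. At 1.5-fold, 6 members were higher and 3 lower, while 13.2% of all measured genes were higher and 14.0% lower.

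**Figure D1:**
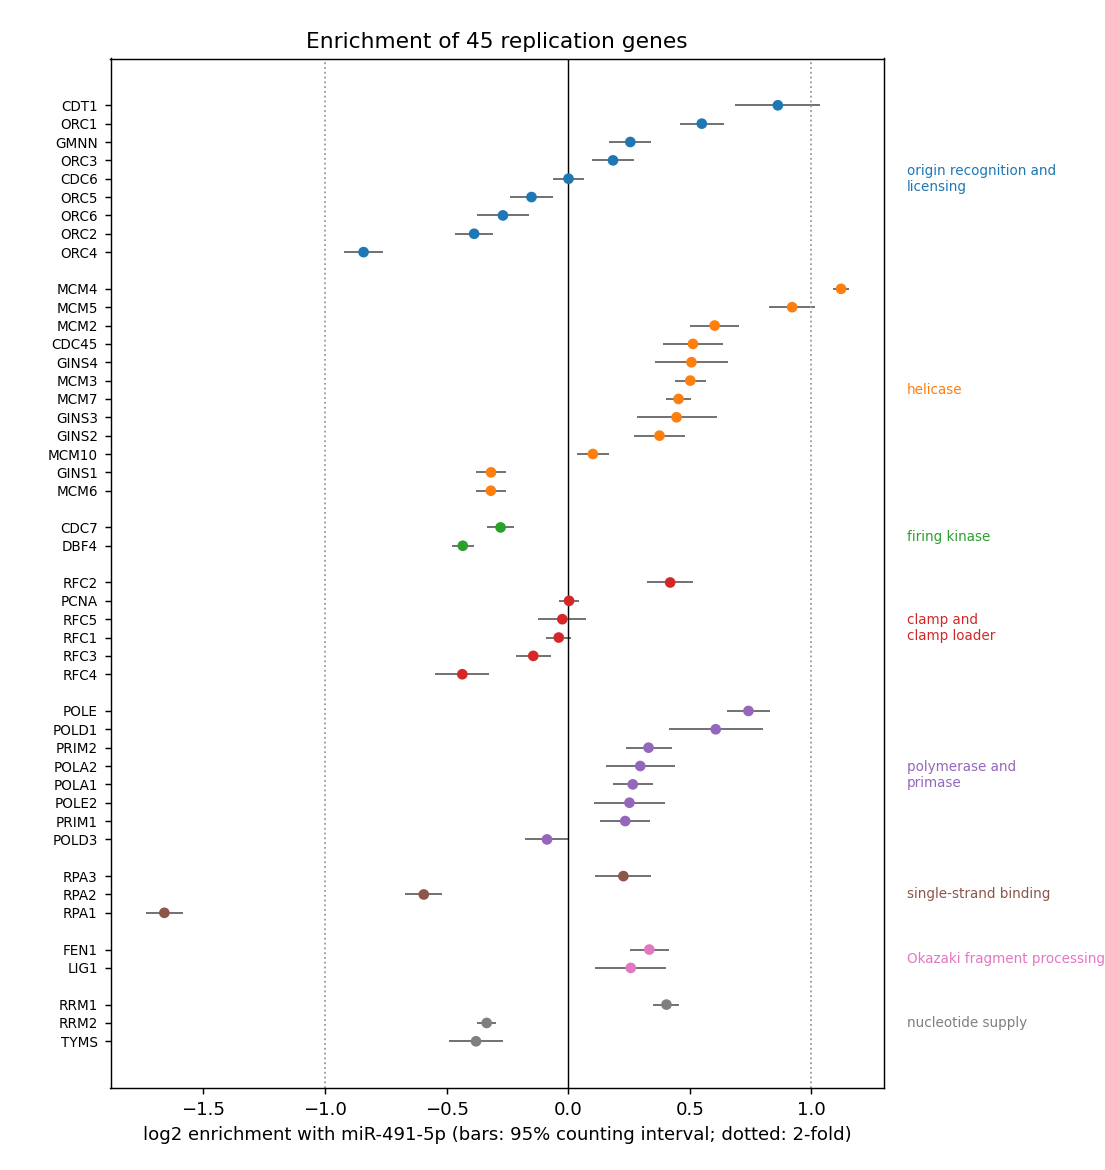
Log2 enrichment of the 45 genes with miR-491-5p (x axis), grouped by role and ordered within each group. Points are single values from 1 library per group, bars are 95% counting intervals, and dotted lines mark 2-fold. MCM4 at 1.12 and RPA1 at -1.66 lie outside the dotted lines, and 10 of 12 helicase genes lie above 0.

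The ratio of the pull-downs alone, which leaves out both inputs, had the same 2 genes past 2-fold. MCM4 was the 1 member higher, where 2.5% of all measured genes were, and RPA1 was the 1 member lower, where 3.17% were. The members' median log2 pull-down ratio was 0.26, against 0.01 for all measured genes. Of the members 32 were above 0 and 13 below, where 50.9% and 49.1% of all measured genes were. In the inputs, 0 of 45 members passed 2-fold in either direction, where 0.727% of all measured genes were higher and 0.513% lower with miR-491-5p. The median log2 input ratio was 0.03 for the members and -0.01 for all measured genes. RNA came from whole cultures, so fewer cells in S phase and less RNA per cell cannot be told apart in an input ratio.

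The sign of a small value depended on the scaling. With total counts in place of the size factors, the median enrichment of all measured genes moved from 0.00 to 0.18, and 33 members rather than 28 were above 0. The calls over all measured genes then split to 66.7% higher, against 45.6% with size factors, and in the pull-down ratio to 67.0% against 44.0%. In the pull-down ratio 37 rather than 32 members were above 0, and in the input ratio 27 rather than 32. Relative to the median of all measured genes, 27 members lay above it in enrichment and 18 below it.

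Genes of origin recognition and licensing spread to both sides. None of the 9 passed 2-fold in enrichment, 5 were above 0 and 4 below, and the median was 0.00, which became 0.18 with total counts. CDT1, which brings the MCM ring to the origin, was the highest of them. Its normalised counts were 1263 (miR-491-5p) and 1352 (control) in the inputs and 1146 and 674 in the pull-downs. The control pull-down was the low library and the other 3 lay close together, which gave CDT1 a log2 enrichment of 0.86 (0.69 to 1.04) and a control pull-down over input of -1.003 (-1.14 to -0.87), while its miR-491-5p pull-down over input was -0.14. Under total counts its enrichment also passed 2-fold.

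At the other end was ORC4, a subunit of the origin recognition complex. ORC4 had normalised counts of 6232 (miR-491-5p) and 5258 (control) in the inputs and 3562 and 5382 in the pull-downs. Here the miR-491-5p pull-down was the low library, and log2 enrichment was -0.84 (-0.92 to -0.76), a 1.79-fold depletion. The 6 ORC subunits ran from -0.84 to 0.55 in enrichment, with a median of -0.21, 2 above 0 and 4 below. ORC2, chosen after its values were seen, was low in both RNA pools from miR-491-5p cells, with a log2 input ratio of -0.47, the lowest of the 45, and a pull-down ratio of -0.86. GMNN, geminin, binds CDT1 and blocks a second loading of the ring. GMNN had normalised counts of 6153 (miR-491-5p) and 6125 (control) in the inputs and 3394 and 2830.2 in the pull-downs. Both pull-downs were low against their inputs, at -0.86 (miR-491-5p) and -1.11 (control), and the enrichment was 0.26 (0.17 to 0.34). CDC6, the partner of ORC in loading, had an enrichment of 0.00 (-0.06 to 0.07) with nearly the same pull-down over input on both kinds of bead (-0.75 and -0.75).

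Helicase genes had the highest median enrichment of the role groups. Of 12, 10 had an enrichment above 0 with an interval excluding 0, 2 were below 0, 1 passed 2-fold, and the median was 0.48. Of all measured genes 50.1% were above 0, whatever their interval, and 4.46% were 2-fold higher. With total counts the same number, 10 of 12, lay above 0. MCM4 (ENSG00000104738.16, chr8:47960185-47978160 on the plus strand of hg38), a subunit of the hexamer core, led the list. MCM4 had normalised counts of 33591 (miR-491-5p) and 34675 (control) in the inputs and 45035 and 21359 in the pull-downs. The inputs were nearly equal, with a log2 ratio of -0.05, while the miR-491-5p pull-down was the highest and the control pull-down the lowest of the 4 libraries. The miR-491-5p pull-down over input of MCM4 was 0.42 (0.40 to 0.44), the control pull-down over input was -0.70 (-0.72 to -0.67), and the enrichment was 1.12 (1.09 to 1.15). By enrichment MCM4 ranked 410th from the top of the 12662 measured genes.

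The other ring subunits lay at different levels. MCM5 (chosen after its values were seen) came next with an enrichment of 0.92 (0.83 to 1.02), then MCM2 at 0.60, MCM3 at 0.50 and MCM7 at 0.45. MCM6 was the lowest helicase gene, level with GINS1 within the counting error. For MCM6 the normalised counts were 10403 (miR-491-5p) and 9173 (control) in the inputs and 7352 and 8079 in the pull-downs. Of these the miR-491-5p input was the highest and the miR-491-5p pull-down the lowest, and the enrichment was -0.32 (-0.38 to -0.26). The 6 subunits together had a median enrichment of 0.55, with 5 above 0 and 1 below. On the control beads all 6 lay below their input, with a median of -0.76, while on the miR-491-5p beads 4 of 6 lay below it, with a median of -0.17.

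The remaining helicase genes encode CDC45, the 4 GINS subunits and MCM10. GINS4 had normalised counts of 1801 (miR-491-5p) and 1879 (control) in the inputs and 1273 and 934 in the pull-downs. The control pull-down was the low library, at -1.01 (-1.12 to -0.89) against its input on the log2 scale, and the enrichment was 0.51 (0.36 to 0.66). GINS1 stood apart from the other GINS genes with an enrichment of -0.32, next to 0.38 for GINS2 and 0.45 for GINS3. CDC45 had 0.51 and MCM10 0.10. Of the exon bases of GINS4, 23.6% are shared with other genes and of those of GINS3 10.9%, and reads over several genes were left out of the counts, so their values are uncertain.

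The kinase that fires origins lay on the other side. Neither gene of this group passed 2-fold, and both were below 0, with CDC7, the catalytic subunit, at -0.28 and DBF4, its activating subunit, at -0.43 (-0.48 to -0.39). DBF4, chosen after its values were seen, had normalised counts of 14945 (miR-491-5p) and 14726 (control) in the inputs and 14348 and 19089 in the pull-downs. The control pull-down was its high library, and the other 3 lay close together. It was 1 of 3 members above input on the control beads, at 0.37 (0.34 to 0.41).

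Clamp and clamp loader genes centred on 0. None of 6 passed 2-fold in enrichment, 2 were above 0 and 4 below, and the median was -0.03, which became 0.15 with total counts. PCNA, the sliding clamp, was the most abundant member per length, at 649 to 846 TPM over the libraries, and POLD1 the least, at 9.07 to 14.0 TPM. PCNA had an enrichment of 0.00 (-0.04 to 0.05), with -0.72 on the miR-491-5p beads and -0.73 on the control beads. RFC2, a small subunit of the clamp loader, was the highest of the group. RFC2 had normalised counts of 5143 (miR-491-5p) and 5053 (control) in the inputs and 3131 and 2300.1 in the pull-downs. The control pull-down was lowest, at -1.14 (-1.21 to -1.06) against its input, and the enrichment was 0.42 (0.33 to 0.51). RFC4, another small subunit, was the lowest. For RFC4 they were 3373 (miR-491-5p) and 2646 (control) in the inputs and 2165 and 2296 in the pull-downs. The miR-491-5p input was the high library and the miR-491-5p pull-down the low one, and the enrichment was -0.43 (-0.55 to -0.32). RFC1, RFC3 and RFC5 had enrichments of -0.04, -0.14 and -0.02, and 10.7% of the exon bases of RFC5 are shared with other genes.

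Polymerase and primase genes lay above 0 in 7 of 8 cases, each with an interval excluding 0, at a median of 0.28, and none passed 2-fold. Over all measured genes 50.1% lay above 0, whatever their interval. With total counts all 8 were above 0. POLE, the catalytic subunit of the polymerase that copies the leading strand, was the highest. POLE had normalised counts of 3924 (miR-491-5p) and 4319.8 (control) in the inputs and 5263 and 3465 in the pull-downs. The miR-491-5p pull-down was the high library and the control pull-down the low one, as for MCM4, and the enrichment was 0.74 (0.65 to 0.83). The log2 pull-down over input of POLE was 0.42 (0.37 to 0.48) on the miR-491-5p beads and -0.32 (-0.38 to -0.25) on the control beads. POLD3, an accessory subunit of polymerase delta, was the lowest. For POLD3 the normalised counts were 4167 (miR-491-5p) and 4059 (control) in the inputs and 3819 and 3951 in the pull-downs. The 4 libraries were nearly level, the enrichment was -0.09 (-0.18 to 0.00), and its sign turned with total counts. POLD1, which copies the lagging strand as the catalytic subunit of that polymerase, had 0.61. The genes of polymerase alpha and primase, which lay down the primers, were close to each other, with enrichments of 0.27 for POLA1, 0.30 for POLA2, 0.23 for PRIM1 and 0.33 for PRIM2, and POLE2 had 0.25.

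The 3 genes of RPA, subunits of 1 complex, spanned the widest range of any role group in enrichment, from -1.66 to 0.23, with 1 gene past 2-fold. RPA1 (ENSG00000132383.11, chr17:1829702-1900082 on the plus strand of hg38) had normalised counts of 6516 (miR-491-5p) and 4149 (control) in the inputs and 4665 and 9389 in the pull-downs. The control pull-down was its highest library and the control input its lowest, with both miR-491-5p libraries between them. The control pull-down over input was 1.18 (1.12 to 1.23), 2.26-fold, the 1 member at least 2-fold above its input there. On the miR-491-5p beads RPA1 was at -0.48 (-0.53 to -0.43), and its enrichment was -1.66 (-1.74 to -1.58), the 188th lowest of the 12662. Its input ratio was 0.65 and its pull-down ratio -1.01 (-1.06 to -0.96), so both its parts lowered the enrichment. The pull-down ratio of RPA1 no longer passed 2-fold with total counts.

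RPA3, the small subunit, was the lowest member on both kinds of bead. RPA3 had normalised counts of 3954 (miR-491-5p) and 3754 (control) in the inputs and 1822 and 1478 in the pull-downs. Both inputs were high and both pull-downs low, with -1.12 (-1.19 to -1.04) on the miR-491-5p beads and -1.34 (-1.43 to -1.26) on the control beads, and the enrichment was 0.23 (0.11 to 0.34). RPA2 lay between the other subunits, with an enrichment of -0.59 (-0.67 to -0.52).

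Both genes of Okazaki fragment processing were above 0 and neither passed 2-fold. FEN1, the nuclease that trims the flaps of lagging strand fragments, had an enrichment of 0.33 (0.25 to 0.42), and LIG1, the ligase that joins them, 0.26 (0.11 to 0.40).

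None of the 3 genes of nucleotide supply passed 2-fold in enrichment, 1 was above 0 and 2 below, and the same 2, RRM2 and TYMS, had high input ratios. RRM1 is the large subunit of ribonucleotide reductase, which makes deoxynucleotides. RRM1 had normalised counts of 13658 (miR-491-5p) and 13376 (control) in the inputs and 10804 and 7995 in the pull-downs. The inputs were level, the control pull-down was low, and the enrichment was 0.40 (0.35 to 0.46). TYMS, thymidylate synthase, had normalised counts of 4328 (miR-491-5p) and 2892 (control) in the inputs and 2211 and 1921 in the pull-downs. The miR-491-5p input was its high library, with a log2 input ratio of 0.58 (0.51 to 0.66), and the enrichment was -0.38 (-0.49 to -0.27). Of its exon bases 26.2% are shared with other genes, so its values are uncertain. RRM2, the S phase subunit of the reductase, was chosen after its values were seen. It was matched by its start and overlaps the RefSeq gene by only 0.10 of the joint span, so its values are uncertain. Its normalised counts were 34195 (miR-491-5p) and 21697 (control) in the inputs and 20085 and 16072 in the pull-downs. The miR-491-5p input again was the high library, with an input ratio of 0.66 (0.63 to 0.68), and the pull-down ratio was 0.32, so the enrichment was -0.33.

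RRM2, RPA1 and TYMS were the 354th, 366th and 466th highest of the 12662 input ratios, and RRM2 and RPA1 were the members at least 1.5-fold higher in the miR-491-5p input. No member was 1.5-fold lower there, while 3.44% of all measured genes were 1.5-fold higher and 3.03% lower. Input ratios of the 12 helicase genes lay between -0.29 (MCM2) and 0.18 (MCM6), with a median of -0.05. All 6 clamp and clamp loader genes had an input ratio above 0, from 0.03 to 0.35. The control input, which held the hepatocyte transcripts and a larger fibroblast sum than the miR-491-5p input, is the divisor of each of these ratios. The part of that RNA in them was not tested.

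**Figure D2:**
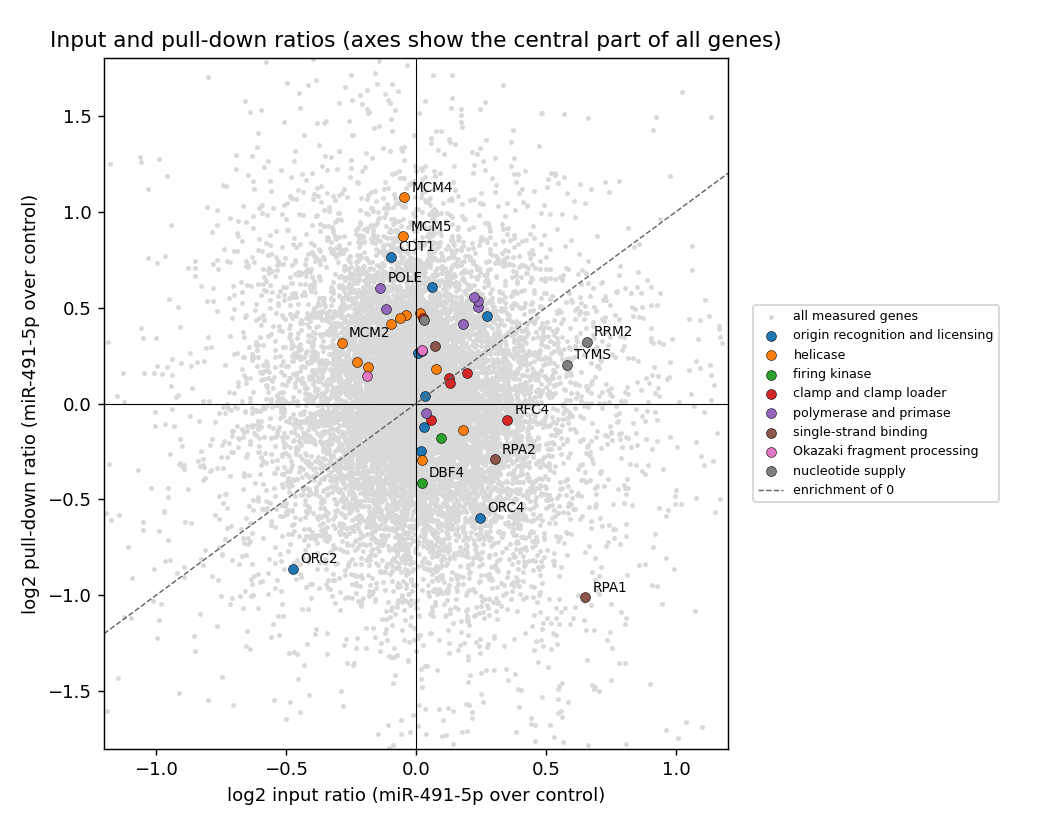
Log2 ratio of the inputs (x axis) and of the pull-downs (y axis), miR-491-5p over control, for the 45 genes coloured by role and for all measured genes in grey. The dashed line marks an enrichment of 0. MCM4, MCM5 and CDT1 lie high with an input ratio near 0, RPA1 lies at the lower right, and RRM2 and TYMS lie to the right.

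Within each transfection the members mostly lay below their input on the beads. On the miR-491-5p beads 41 of 45 were below 0, where 60.2% of all measured genes were. The members' median was -0.39, and 36 of 45 members lay below the median of all measured genes, -0.15. RPA3 was the 1 member at least 2-fold lower, where 4.96% of all measured genes were, and 0 members were 2-fold higher, where 5.34% were. On the control beads 42 of 45 were below 0, where 57.9% of all measured genes were. The members' median was -0.59, and 37 of 45 members lay below the median of all measured genes, -0.15. CDT1, GMNN, GINS4, RFC2 and RPA3 were at least 2-fold lower there, 5 of 45 members (11.1%), where 10.0% of all measured genes were, and RPA1 was the 1 member higher, where 8.61% were. At 1.5-fold, 23 members were lower on the control beads, where 26.9% of all measured genes were, and 14 were lower on the miR-491-5p beads, where 20.8% of all measured genes were.

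These positions against input also moved with the scaling. With total counts 28 of 45 members rather than 41 were below 0 on the miR-491-5p beads and 37 rather than 42 on the control beads, as the medians of all measured genes went from -0.15 to 0.17 and from -0.15 to -0.01. The calls over all measured genes then split to 91.0% higher, against 51.8%, on the miR-491-5p beads and to 62.9%, against 46.2%, on the control beads. Median positions of 4 role groups on the miR-491-5p beads turned from below to above 0, among them the helicase genes, from -0.31 to 0.01. CDT1 and GINS4 lay at -1.003 and -1.01 on the control beads, at the edge of the 2-fold limit.

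**Figure D3:**
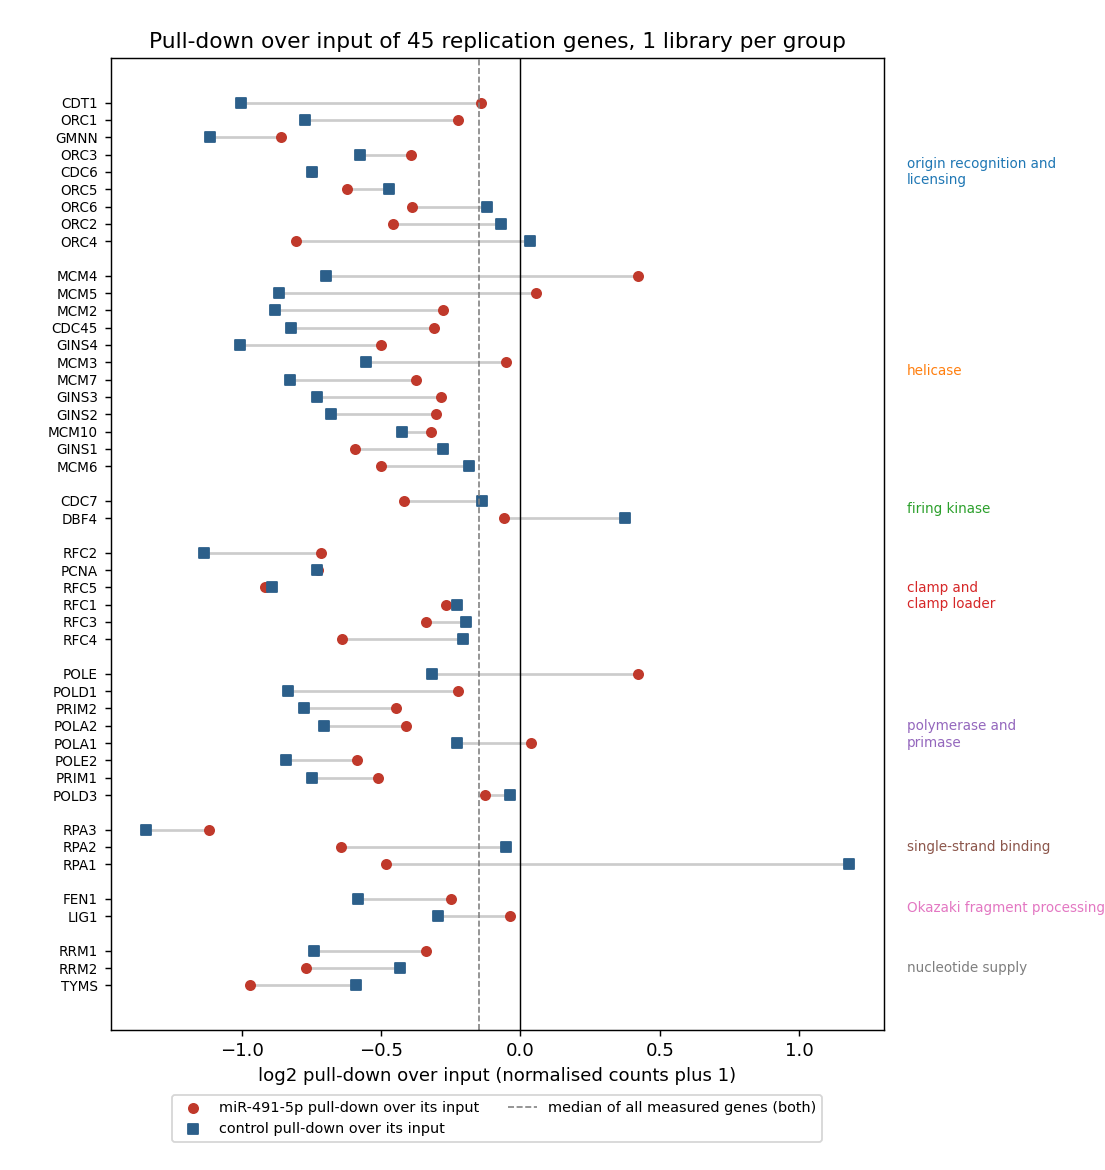
Log2 pull-down over input of each of the 45 genes (x axis) on the miR-491-5p beads (circles) and on the control beads (squares), joined by a line whose length is the size of the enrichment. Values come from 1 library per group, and the dashed line is the median of all measured genes. Most genes lie left of the dashed line on both kinds of bead. MCM4 and POLE lie to the right of 0 with miR-491-5p, as do MCM5 (0.06) and POLA1 (0.04) by less. RPA1 and DBF4 lie to the right of 0 with the control, as does ORC4 (0.03) by less.

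Positions on the different beads were only weakly related across the members. Over the 45 genes the 2 values had a Pearson r of 0.17 and a Spearman rho of 0.13, and without RPA1 0.23 and 0.14. The same measures were 0.40 and 0.44 over 66 other replication and nucleotide genes, and 0.60 and 0.62 over all 12662 measured genes. These correlations are across genes, which are not replicates, and the compared values share no library but share the gene's length and abundance.

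Members with a longer sum of merged exons lay higher on the miR-491-5p beads. Pull-down over input correlated with the log2 of summed exon length at r = 0.54 and rho = 0.46 over the 45 members, and at 0.29 and 0.28 on the control beads. Over all measured genes the values were 0.19 and 0.25 on the miR-491-5p beads and 0.21 and 0.29 on the control beads. The 7 members with 6000 or more exon bases, led by POLE with 16609, had a median of 0.04 on the miR-491-5p beads, and the 7 under 2500, down to PCNA with 1471, had -0.72. All measured genes in the same classes had medians of -0.01 and -0.42. On the control beads these classes had medians of -0.30 and -0.73 for the members and 0.08 and -0.53 for all measured genes. For enrichment, r was 0.09 and rho 0.11 over the members.

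**Figure D4:**
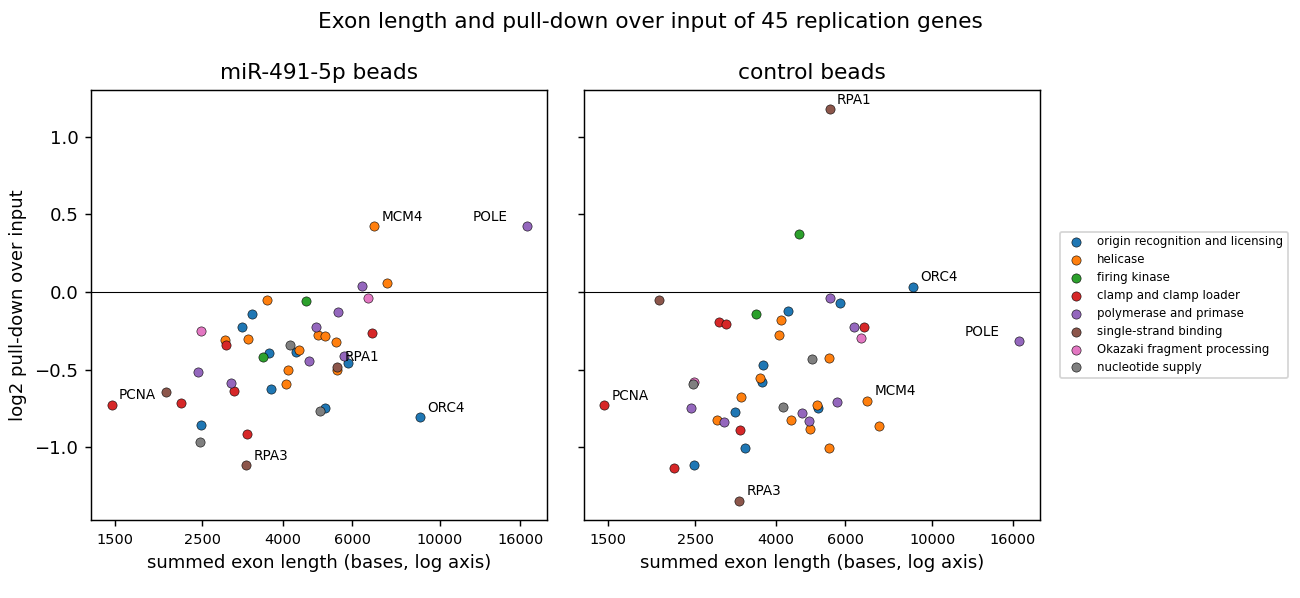
Summed exon length (x axis, log scale) and log2 pull-down over input (y axis) of the 45 genes on the miR-491-5p beads (left) and the control beads (right), coloured by role. POLE and MCM4 lie above 0 on the left and below 0 on the right, and RPA1 does the reverse.

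Another 66 genes of the same processes were listed beside the members, 36 of replication forks and origins and 30 of nucleotide synthesis. All 66 were measured, 3 were at least 2-fold enriched and 2 depleted. Of the 36 fork and origin genes, 3 were higher and 0 lower, 21 were above 0, and the median was 0.02. POLD4, a small subunit of polymerase delta, had an enrichment of 1.06 (0.43 to 1.69) on normalised counts of 82.5 (miR-491-5p) and 109 (control) in the inputs and 88.9 and 55.9 in the pull-downs. Of the exon bases of POLD4 21.3% are shared with other genes, so its values are uncertain. CHTF18, part of an alternative clamp loader, had 1.05 (0.67 to 1.43) on 237 (miR-491-5p) and 266 (control) in the inputs and 272 and 147 in the pull-downs. RECQL4, a helicase with a role in origin firing, had 1.01 (0.80 to 1.22) on 769 (miR-491-5p) and 748 (control) in the inputs and 1119 and 539 in the pull-downs. In all 3 the control pull-down was the lowest library, as for MCM4, and the intervals were wide for the low counts of POLD4 and CHTF18.

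Of the 30 nucleotide synthesis genes, 0 were higher and 2 lower, 22 were above 0, and the median enrichment was 0.21. DCTD, which deaminates dCMP on the way to thymidylate, had -1.25 (-1.35 to -1.15) on normalised counts of 3424 (miR-491-5p) and 2882 (control) in the inputs and 2625 and 5264 in the pull-downs. DUT, which makes the dUMP that TYMS uses, had -1.24 (-1.32 to -1.16) on 7305 (miR-491-5p) and 5476 (control) in the inputs and 3219 and 5687 in the pull-downs. Of the exon bases of DUT 14.5% are shared with other genes, so its values are uncertain. RRM2B, the small reductase subunit induced by p53, was the third lowest at -0.92 (-0.98 to -0.86), with an input ratio of 0.67 next to 0.66 for RRM2. In DCTD the control pull-down was the highest library, as in RPA1, whereas in DUT the miR-491-5p pull-down was the lowest.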

How the data were processed

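Reads of 4 libraries, 1 per group, were analysed from the deposited table of whole-number read counts per gene, which the authors did not normalise. Counting used featureCounts 1.5.0-p1 on GENCODE 24 and hg38, per the file headers, without regard to strand, without reads marked as duplicates and without reads over several genes. Values of overlapping, antisense and near-identical genes are therefore uncertain. The submitters' processing notes also name STAR and DESeq2 1.10.1. Groups came from the sample titles.

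Counts were divided by DESeq2 1.42.0 size factors (0.957 and 0.778 for the inputs, 1.24 and 1.13 for the pull-downs, miR-491-5p first). Log2 ratios used normalised counts plus 1. Standard errors are counting errors with 0.5 added to each count, and intervals span 1.96 of them on each side. A gene was called at 2-fold or more with an interval excluding 0, among genes averaging at least 50 normalised counts, which hold 99.7% of all counts. No test compares the miRNAs, since a group has 1 library. The edgeR fit named below, which takes the transfections as replicates of beads against input, is the only source of p-values. Levels per length are TPM computed from the counts.

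The table pairs no symbols with its gene IDs. Symbols were matched by position to RefSeq genes of GRCh38.p14: 34 of 45 at the transcription start and 10 at an end within 1000 bp, and 1 by an overlap of at least 0.5. Among those matched at a start or an end, RRM2 (0.10), GINS3 (0.12), POLD3 (0.44) and MCM5 (0.46) overlapped the RefSeq gene by less than 0.5 of the joint span. The members, role groups, other genes and markers were chosen with earlier results of these data known. Genes with per-library values were those past 2-fold in any ratio and the highest and lowest by enrichment in each role group of 3 or more. Of the other listed genes, those past 2-fold in enrichment and the 3 highest and 3 lowest were named. Promoter and miRNA sequences are from RefSeq on GRCh38.p14. Alternatives were total counts, TMM factors (edgeR 4.0.16), a pseudocount of 5, a count minimum of 10 or none, symbols matched at both ends within 20 bp, and an edgeR fit with the transfection as a block. The ratio and edgeR scripts were tested on simulated counts.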

Additional observations from a re-analysis of the deposited data

Results flagged for a closer look

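For 4 members pull-down over input lay on opposite sides of 0 in the transfections, each with a 95% counting interval that excluded 0. In each case the difference was not tested, since a group has 1 library. MCM4 was at 0.42 on the miR-491-5p beads and at -0.70 on the control beads. POLE was at 0.42 and -0.32 in the same order. RPA1 was at -0.48 and 1.18, and DBF4 at -0.059 and 0.37. With total counts MCM4, POLE and RPA1 stayed on opposite sides, while DBF4 was above 0 on both kinds of bead. The control input, which held the hepatocyte transcripts, is the divisor of the control value of each, and whether that RNA affects the value was not tested.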

How the results depend on the processing

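The labels give no replicate numbers, so no fit by replicate was made. The miRNAs could not be compared with a test, and beads and input of each transfection were paired in 1 edgeR fit, given last. A pseudocount of 5 left all 15 counts and median differences within 1.5 times or the counting spread, as did leaving out the 4 members that share over 10% of their exon bases, an alternative chosen after seeing the data. With total counts 10 of 15 held: enrichment then had 3 members higher (CDT1, MCM4 and MCM5), where 7.05% of all measured genes were, and the pull-down ratio had 2 higher (MCM4 and MCM5) and 0 lower, where 4.19% and 2.06% were. The miR-491-5p beads then had 0 lower, where 1.02% were, and the control beads 1 lower (RPA3), where 6.46% were. With TMM factors 14 of 15 held, and the control beads had 3 members lower (GMNN, RFC2 and RPA3), where 9.07% of all measured genes were. A count minimum of 10, or none, adds low genes to the background, and the members' median minus that of all genes became -0.35 or -0.44 on the miR-491-5p beads and -0.57 or -0.63 on the control beads, from -0.24 and -0.44. Requiring both ends within 20 bp left 10 of 45 members, without MCM4 and RPA1, and 6 of 15 results held. Enrichment then had 0 members higher and 0 lower with a median difference of 0.051, the pull-down ratio 0 and 0 with 0.16, and the control beads 0 higher and 2 lower with -0.18. An edgeR quasi-likelihood fit of beads against input with the transfection as a block, on 1 residual degree of freedom, had 0 members 2-fold higher and 1 lower (RPA3) at an adjusted p under 0.05, where 4.26% and 5.23% of all measured genes were. Over all sizes it placed 5 members below input and 0 above, where 10.2% and 5.33% of all measured genes were, and at an unadjusted p under 0.05 the counts were 18 and 0 of 45, where 22.6% and 11.7% of all measured genes were. Depth was not the limit, as counting errors of the members were small, but 1 library per group leaves the spread between experiments unknown.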
